A study of Homo sapiens with 12 samples.

Results

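Histones are the proteins around which DNA is wrapped, and most of them are made in S phase from clustered genes whose mRNAs end in a stem loop. The genes described here encode variants that stand apart from that supply: their transcripts are polyadenylated, most carry introns, and the proteins can be exchanged into chromatin outside DNA replication. H2A.Z marks promoters and enhancers, H3.3 replaces H3 at active genes and at telomeres, the macroH2A proteins carry a large extra domain and are found in silent chromatin, and H2AX is the variant that ATM, ATR and DNA-PK phosphorylate around broken DNA. H2AX is a mixed case, since its gene has no intron and gives both a stem-loop and a polyadenylated transcript.

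The set held 8 genes, H2AX, H2AZ1, H2AZ2, H3-3A, H3-3B, H1-10, MACROH2A1 and MACROH2A2, taken by gene name from 44938 features in the table of 92.1 cells and 42342 in that of MP38 cells. All 8 were present in both tables and all 8 passed the filter on low counts. The cells were 2 human uveal melanoma lines, 92.1 and MP38, held for 72 hours in VE-822, also called berzosertib, which blocks the replication stress kinase ATR, or in its solvent DMSO, with 3 libraries in each of the 4 groups and 12 in all. VE-822 was dosed in each line to leave about 40% of cells viable, so dose and line cannot be told apart, and no source used here says whether the 3 libraries of a group were separate cultures. If they were not, p-values measure only a technical spread.

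Library totals were 113370680 to 137664800 counts in VE-822 and 112374503 to 123705501 in DMSO for 92.1, and 54415628 to 60891725 in VE-822 and 61045071 to 63638976 in DMSO for MP38. DMSO library 3 of 92.1 stood apart from its 2 replicates, with a chi-square per feature of 93.0 and 93.6 against each, while other replicate pairs gave 2.39 to 8.32. Both lines carried the melanocytic markers their label implies: all 7 of 7 (PMEL, MLANA, MITF, SOX10, TYR, TYRP1, DCT) averaged at least 1 CPM (a gene's count scaled by its library's TMM-adjusted total) in each group, with summed levels of 19640 to 19920 CPM in VE-822 and 18820 to 19040 CPM in DMSO in 92.1, and 5452 to 5470 CPM in VE-822 and 4423 to 4595 CPM in DMSO in MP38. Immune and epithelial markers (4 genes each) summed to under 1 CPM in each library, fibroblast markers (4) to at most 5.24 CPM and endothelial markers (3) to at most 3.76 CPM. Of the 3 retinal pigment epithelium markers, BEST1 led a sum of 35.0 to 62.4 CPM in 92.1 and 283 to 351 CPM in MP38.

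The promoters of 4 members are printed because they share a feature that the choice of genes did not use. These are the RefSeq windows on GRCh38.p14 of H2AX (chr11:119095416-119095715), H2AZ1 (chr4:99950226-99950525), H2AZ2 (chr7:44848038-44848337) and H3-3B (chr17:75779730-75780029), all on the minus strand, each running from 250 bases before the annotated start to 50 after it. Capitals mark CCAAT boxes (CCAAT or its reverse complement ATTGG) and CHR-like hexamers (TTTGAA or TTTAAA on either strand).
H2AX: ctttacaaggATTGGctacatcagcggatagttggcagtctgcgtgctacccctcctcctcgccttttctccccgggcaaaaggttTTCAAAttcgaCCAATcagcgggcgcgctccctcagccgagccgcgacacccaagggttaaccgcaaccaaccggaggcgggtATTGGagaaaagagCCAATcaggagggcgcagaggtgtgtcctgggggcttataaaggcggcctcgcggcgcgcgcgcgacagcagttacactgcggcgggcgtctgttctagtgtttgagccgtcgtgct
H2AZ1: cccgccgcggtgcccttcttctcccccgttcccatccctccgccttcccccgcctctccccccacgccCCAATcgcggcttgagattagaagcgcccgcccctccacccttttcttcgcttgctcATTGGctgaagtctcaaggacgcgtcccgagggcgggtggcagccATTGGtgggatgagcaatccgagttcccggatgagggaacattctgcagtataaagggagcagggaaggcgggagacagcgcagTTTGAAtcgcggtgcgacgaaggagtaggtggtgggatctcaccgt
H2AZ2: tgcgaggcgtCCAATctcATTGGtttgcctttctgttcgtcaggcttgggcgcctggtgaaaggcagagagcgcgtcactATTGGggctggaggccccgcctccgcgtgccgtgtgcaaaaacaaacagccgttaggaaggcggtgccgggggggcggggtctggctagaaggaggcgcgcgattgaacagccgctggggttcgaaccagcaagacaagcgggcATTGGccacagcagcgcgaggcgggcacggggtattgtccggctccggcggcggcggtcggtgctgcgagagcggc
H3-3B: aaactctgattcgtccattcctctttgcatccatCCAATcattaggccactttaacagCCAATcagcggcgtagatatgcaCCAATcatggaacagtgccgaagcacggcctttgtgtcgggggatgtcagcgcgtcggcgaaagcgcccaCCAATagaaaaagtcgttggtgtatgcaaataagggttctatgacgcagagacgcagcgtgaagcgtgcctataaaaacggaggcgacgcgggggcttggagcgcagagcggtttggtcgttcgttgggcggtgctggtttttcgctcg

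H2AX, H2AZ2 and H3-3B each held 4 CCAAT boxes and H2AZ1 held 3. In the same RefSeq table, 34.6% of 35116 windows of this length held at least 1 and 3.26% held 3 or more. The other members had fewer: 1 in 3 of the 4 windows of H3-3A and 0 in the fourth, 2 in 1 of the 2 windows of MACROH2A1, and 0 for H1-10 and MACROH2A2. A CHR-like hexamer lay in 3 of the 12 member windows, those of H2AX and H2AZ1 and 1 of MACROH2A1. That share is near the 24.0% of all windows. No member window held the E2F-like octamers TTTCGCGC, TTTGGCGC or TTTCCCGC on either strand, which 2.74% of all windows held. GC boxes (GGGCGG on either strand) were in 8 of the 12 member windows and in 45.0% of all. These matches describe letters in a window and do not show binding.

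**Figure D1:**
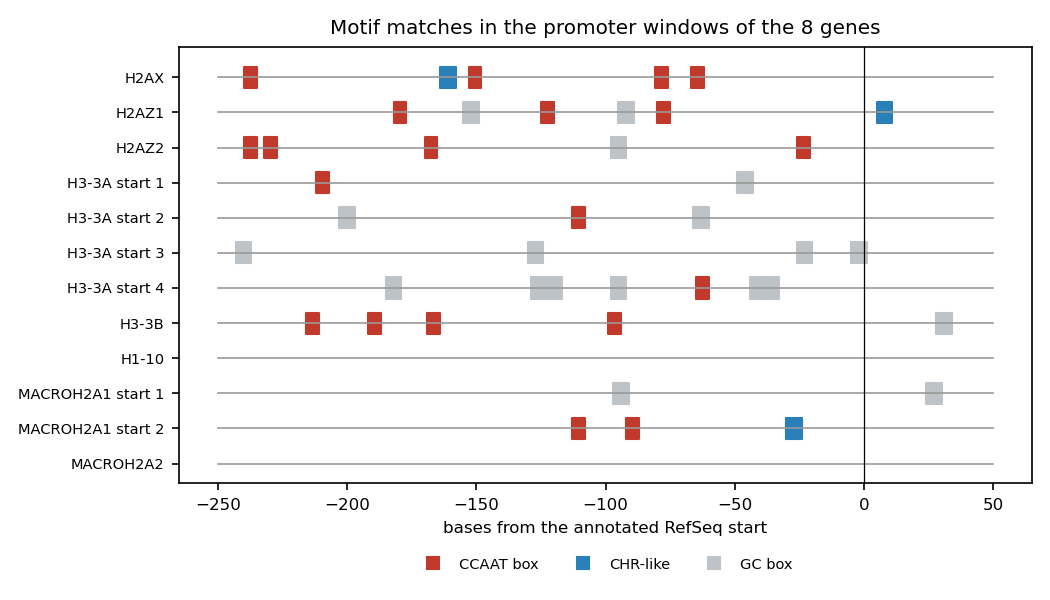
Positions of CCAAT boxes, CHR-like hexamers and GC boxes in the 12 RefSeq promoter windows of the 8 genes, in bases from the annotated start (vertical line). H2AX, H2AZ1, H2AZ2 and H3-3B carry 3 or 4 CCAAT boxes each, and H1-10 and MACROH2A2 carry none.

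The comparison of VE-822 with DMSO asks how transcripts respond when ATR is blocked. H2AX, H2AZ1, H2AZ2 and H3-3B were called in opposite directions in the 2 lines, and each other member was called in a single line. For H3-3B the MP38 call was lost under several alternatives. In 92.1, 7 of the 8 were lower in VE-822, 0 were higher and H1-10 did not pass the test. In MP38, 5 were higher (H2AX, H2AZ1, H2AZ2, H3-3B and H1-10), 0 were lower and 3 did not pass. The test was edgeR's quasi-likelihood test with Benjamini-Hochberg adjustment over all features, called at an adjusted p under 0.05. In 92.1, 39.9% of all 22943 features tested were called, 20.3% as higher and 19.6% as lower. In MP38, 52.3% of all 21415 were called, 26.9% as higher and 25.4% as lower. The median log2 fold change of the 8 was -0.59 in 92.1 and 0.22 in MP38, against 0.03 and -0.01 over all features tested. Together the 8 genes took 0.122% to 0.126% of counts in VE-822 and 0.187% to 0.194% in DMSO libraries of 92.1, and 0.160% to 0.167% in VE-822 and 0.121% to 0.125% in DMSO libraries of MP38. These are shares of the poly(A) RNA of a culture, in which fewer cells of one state and less RNA per cell cannot be told apart.

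**Figure D2:**
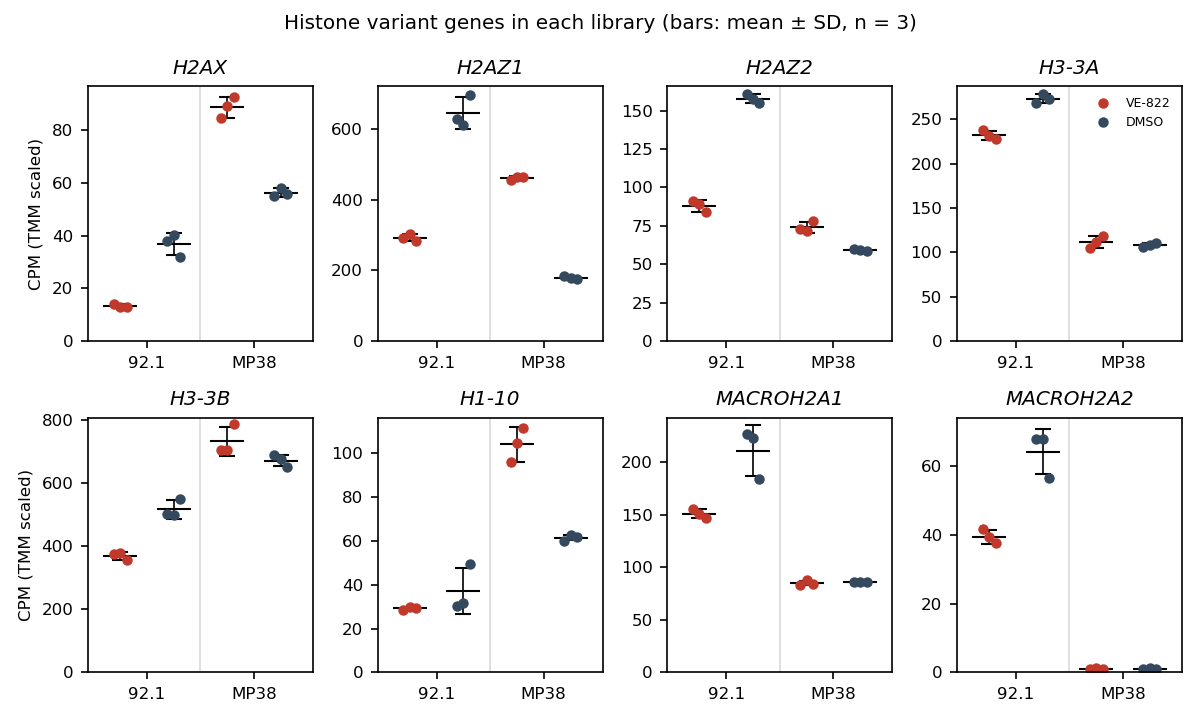
Level of each histone variant gene in each of the 12 libraries, in TMM-scaled CPM (points), with the mean and SD of 3 libraries (bars), VE-822 in red and DMSO in dark blue, 92.1 left and MP38 right in each panel. H2AZ1 is at 282 to 304 CPM in VE-822 and 610.1 to 695 CPM in DMSO in 92.1, and at 456 to 464 CPM in VE-822 and 175 to 184 CPM in DMSO in MP38.

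H2AX (ENSG00000188486.3, chr11:119093854-119095467 on GRCh38, minus strand, 1 exon) encodes the histone whose phosphorylated tail marks broken DNA. In 92.1 its 3 VE-822 libraries had 14.1, 12.7 and 12.8 CPM, against 38.1, 40.1 and 32.0 CPM in DMSO. The groups were far apart, and the highest VE-822 library lay well below the lowest DMSO library. The log2 fold change of -1.48 ± 0.0918 (SE, n = 3 in each group) was the lowest of the 8 genes in that line (edgeR adjusted p = 6.75e-06). In MP38 the VE-822 libraries had 84.7, 89.2 and 92.7 CPM and the DMSO libraries 55.2, 58.2 and 55.7 CPM. Here every VE-822 library was above every DMSO library, with a log2 fold change of 0.66 ± 0.0413 (edgeR adjusted p = 4.20e-11).

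H2AZ1 (ENSG00000164032.12, chr4:99948086-99950355, minus strand, 5 exons) encodes the main H2A.Z protein, and H2AZ2 (ENSG00000105968.19, chr7:44826791-44848087, minus strand) a near-identical second form. In 92.1 H2AZ1 had 290.3, 304 and 282 CPM in VE-822, against 627, 610.1 and 695 CPM in DMSO. In MP38 it had 456, 463 and 464 CPM in VE-822, against 184, 179 and 175 CPM in DMSO. H2AZ1 thus stood highest in untreated 92.1 and lowest in untreated MP38, with both treated groups between them and no overlap. Its log2 fold change was -1.14 ± 0.0615 in 92.1 (edgeR adjusted p = 2.94e-06) and 1.36 ± 0.0374 in MP38 (edgeR adjusted p = 1.69e-16), where it ranked 23rd of all features tested by p-value.

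H2AZ2 followed the same directions over a smaller range. Its VE-822 libraries of 92.1 had 91.4, 89.1 and 83.7 CPM and its DMSO libraries 161, 158 and 155 CPM. In MP38 they were 72.6, 71.6 and 78.2 CPM in VE-822 and 59.9, 59.2 and 58.9 CPM in DMSO. Neither line showed overlap between treatments. The log2 fold change was -0.84 ± 0.0492 in 92.1 (edgeR adjusted p = 4.86e-06) and 0.32 ± 0.0405 in MP38 (edgeR adjusted p = 1.11e-06).

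The H2A.Z genes did not keep a fixed ratio. The quotient of H2AZ1 to H2AZ2 in deposited FPKM (the count scaled by feature length and library total) was 19.4, 19.9 and 18.3 in VE-822 libraries of MP38, against 9.46, 9.32 and 9.16 in DMSO. In 92.1 it was 9.80, 10.5 and 10.4 in VE-822, against 12.02, 11.9 and 13.8 in DMSO. The size of such a quotient depends on the feature lengths behind FPKM, which are constant between treatments. Per kilobase of median coding transcript, H2AZ1 averaged 464 and H2AZ2 111 in VE-822 libraries of MP38. Groups did not overlap in either line, and the log2 ratio differed by 1.04 in MP38 and -0.30 in 92.1 (exact permutation test, two-sided p = 0.1 in each, the smallest that 3 against 3 can give).

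H3-3A (ENSG00000163041.13, chr1:226061851-226072019, plus strand) and H3-3B (ENSG00000132475.10, chr17:75776434-75785893, minus strand) encode the same H3.3 protein from differently regulated transcripts. H3-3A had 238, 231 and 227 CPM in VE-822 libraries of 92.1, against 268, 279 and 273 CPM in DMSO. The groups were close but did not overlap, and the log2 fold change of -0.24 ± 0.0438 passed the test (edgeR adjusted p = 0.0029). In MP38 H3-3A had 105, 111 and 118 CPM in VE-822 and 106, 108 and 111 CPM in DMSO. These groups overlapped, with a log2 fold change of 0.04 ± 0.0423 (edgeR adjusted p = 0.485), which was at or just below 0 when counts were scaled by library size only.

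H3-3B also fell in 92.1. It had 374, 378 and 355 CPM in VE-822 libraries, against 500.1, 499 and 550.2 CPM in DMSO, a log2 fold change of -0.48 ± 0.0555 (edgeR adjusted p = 0.000227). In MP38 it had 704, 705 and 786 CPM in VE-822 and 687, 674 and 651 CPM in DMSO. Treatments did not overlap, but the highest DMSO library was near the lowest VE-822 library. That log2 fold change of 0.13 ± 0.0448 (edgeR adjusted p = 0.024) was 0.073 without VE-822 library 3 (adjusted p = 0.0678), and the call was also lost without DMSO library 2 (0.13, adjusted p = 0.0691), without DMSO library 3 (0.098, adjusted p = 0.0726) and with library size scaling only (0.086, adjusted p = 0.0562). The H3-3A to H3-3B ratio in FPKM averaged 1.01 ± 0.0254 in VE-822 and 0.850 ± 0.0505 in DMSO in 92.1 (SD, n = 3 each; exact permutation test, two-sided p = 0.1), and 0.244 ± 0.00788 in VE-822 and 0.259 ± 0.0127 in DMSO in MP38 (exact permutation test, two-sided p = 0.2). Per kilobase of median coding transcript, H3-3A averaged 198 and H3-3B 557 in VE-822 libraries of 92.1.

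Genes of the H3.3 type have many processed copies in the genome, to which their reads can also align. Of 29 pseudogene features named H3P in the 92.1 table and 23 in the MP38 table, 1 averaged at least 1 CPM, H3P6 (chr2:174719908-174720318). All H3P features together held counts equal to 3.99% to 4.71% of those of H3-3A and H3-3B in 92.1 libraries and 2.89% to 3.25% in MP38 libraries. H3P6 had 25.7, 26.2 and 25.9 CPM in VE-822 and 32.6, 32.2 and 31.6 CPM in DMSO in 92.1, a log2 fold change of -0.31 ± 0.0503 (edgeR adjusted p = 0.00149), and 0.04 ± 0.0486 in MP38 (edgeR adjusted p = 0.525). Its 2 values lay near those of H3-3A. The features of H2A.Z pseudogenes, 7 in each table, held at most 0.304% of the counts of H2AZ1 and H2AZ2. The share of misplaced reads was not tested.

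H1-10 (ENSG00000184897.6, chr3:129314771-129316286, minus strand, 1 exon) encodes a linker histone that is present throughout the cell cycle. In MP38 it had 95.9, 105 and 112 CPM in VE-822, against 60.1, 62.5 and 61.9 CPM in DMSO. All treated libraries were above all control libraries, with a log2 fold change of 0.76 ± 0.0467 (edgeR adjusted p = 2.90e-11). In 92.1 it had 28.3, 30.1 and 29.2 CPM in VE-822 and 30.3, 31.9 and 49.5 CPM in DMSO. DMSO library 3, which stood apart over all features, was the high one. With it the log2 fold change was -0.35 ± 0.165 (edgeR adjusted p = 0.124), and without it -0.12 (adjusted p = 0.0167); without DMSO library 1 it was -0.50 (adjusted p = 0.0428). The lncRNA H1-10-AS1, which overlaps the gene, had 109, 79 and 84 counts in VE-822 and 91, 129 and 201 counts in DMSO in 92.1, a log2 fold change of -0.81 ± 0.26 (edgeR adjusted p = 0.0366). Its levels there were 0.785, 0.568 and 0.711 CPM in VE-822 and 0.831, 1.10 and 1.67 CPM in DMSO. DMSO library 3 was again the high one, and the call was not examined without it. In MP38 H1-10-AS1 was lower in VE-822 by a log2 fold change of -0.58 ± 0.131 (edgeR adjusted p = 0.000873), opposite to H1-10. Whether counting used strand is not given in the sources used here.

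MACROH2A1 (ENSG00000113648.16, chr5:135333900-135399914, minus strand) and MACROH2A2 (ENSG00000099284.15, chr10:70052544-70112282, plus strand) encode the macroH2A proteins. MACROH2A1 had 155, 151 and 147 CPM in VE-822 libraries of 92.1, against 227, 223 and 184 CPM in DMSO, with DMSO library 3 the lowest of its group and still above every VE-822 library. The log2 fold change was -0.48 ± 0.0787 (edgeR adjusted p = 0.00151). In MP38 it was nearly level, at 83.3, 87.5 and 84.0 CPM in VE-822 and 85.7, 86.0 and 85.6 CPM in DMSO, with a log2 fold change of -0.01 ± 0.0366 (edgeR adjusted p = 0.784).

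MACROH2A2 was the member that most set the lines apart in level. It had 41.5, 39.3 and 37.5 CPM in VE-822 and 67.7, 68.0 and 56.5 CPM in DMSO in 92.1, a log2 fold change of -0.70 ± 0.0795 (edgeR adjusted p = 0.000218). In MP38 it held 61, 72 and 60 raw counts in VE-822 and 56, 76 and 70 in DMSO, that is 1.06 to 1.19 CPM in VE-822 and 0.884 to 1.22 CPM in DMSO. No response passed the test in MP38 at these low counts, where the SE was wide (log2 fold change 0.08 ± 0.187, edgeR adjusted p = 0.761). AIFM2, a gene that overlaps MACROH2A2, averaged 65.5 CPM in MP38 and 14.6 CPM in 92.1, and whether its reads add to the low MP38 value was not tested. The MACROH2A1 to MACROH2A2 ratio in FPKM averaged 3.24 ± 0.0790 in VE-822 and 2.78 ± 0.0445 in DMSO in 92.1 (SD, n = 3 each; exact permutation test, two-sided p = 0.1), and 64.0 ± 2.59 in VE-822 and 69.2 ± 11.2 in DMSO in MP38 (exact permutation test, two-sided p = 0.7).

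**Figure D3:**
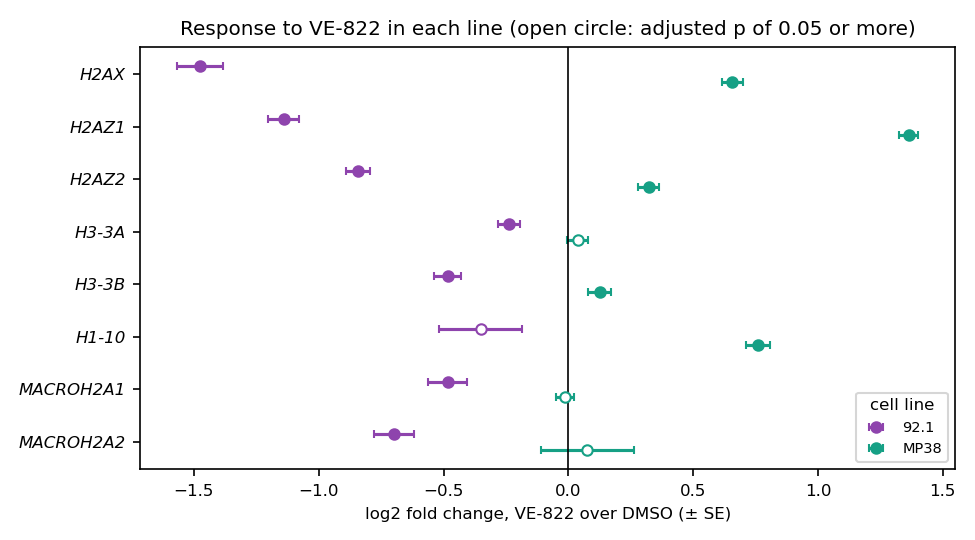
Log2 fold change of VE-822 over DMSO with its SE for the 8 genes, in 92.1 (purple) and MP38 (green); filled circles passed an adjusted p of 0.05. All 8 values of 92.1 lie below 0, from -1.48 for H2AX to -0.24 for H3-3A, and those of MP38 lie from -0.01 for MACROH2A1 to 1.36 for H2AZ1.

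The difference in response was tested as such in a joint fit of all 12 libraries, as the response of 92.1 minus that of MP38 on the log2 scale. All 8 members were lower in that difference (edgeR adjusted p under 0.05), where 40.9% of 24958 features were called, 22.1% as higher and 18.8% as lower. H2AZ1 led with -2.47 ± 0.0709 (edgeR adjusted p = 6.64e-13), followed by H2AX with -2.10 ± 0.105 (edgeR adjusted p = 2.67e-10), H2AZ2 with -1.13 ± 0.0677 (edgeR adjusted p = 2.45e-09) and H1-10 with -1.08 ± 0.179 (edgeR adjusted p = 0.000154). MACROH2A2 had -0.75 ± 0.173, H3-3B -0.58 ± 0.0739 and MACROH2A1 -0.44 ± 0.0933. The MP38 side of the MACROH2A2 difference rested on 56 to 76 counts a library, and the joint fit used 1 spread per gene for both lines. H3-3A had the smallest difference, -0.25 ± 0.0671 (edgeR adjusted p = 0.00796), whose call was lost among features of at least 5 CPM (-0.13, adjusted p = 0.0892). H2AX, H2AZ1, H2AZ2 and H3-3B were called lower in 92.1 and higher in MP38. For H3-3B that rests on the MP38 call that several alternatives lost. H1-10 was higher in MP38 too and did not pass in 92.1. Whether the number of CCAAT boxes in a promoter goes with the response was not tested, among these genes or over all features.

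Levels of different genes can be set side by side only per length. By deposited FPKM, the order in VE-822 libraries of 92.1 was H2AZ1 (132 ± 4.42), H3-3A (62.1 ± 0.485), H3-3B (61.7 ± 1.36), H1-10 (19.7 ± 0.780), H2AZ2 (12.9 ± 0.374), MACROH2A1 (8.72 ± 0.0923), H2AX (8.38 ± 0.389) and MACROH2A2 (2.69 ± 0.0946; FPKM, SD, n = 3). The libraries of H3-3A and H3-3B overlapped there, and so did those of MACROH2A1 and H2AX. In DMSO libraries of 92.1 H2AZ1 had 277 ± 18.4 FPKM, H3-3B 82.2 ± 4.42 and H3-3A 69.7 ± 1.58, and H1-10, H2AX and H2AZ2 overlapped around 22.0 to 24.0 FPKM. H2AX thus ranked 7 of 8 in VE-822 and 5 of 8 in DMSO by FPKM, and 8 of 8 in both per kilobase of median coding transcript.

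In MP38 no neighbours in the order overlapped. In VE-822 libraries H2AZ1 was first with 200.2 ± 3.46 FPKM, before H3-3B with 118 ± 4.86, H1-10 with 67.7 ± 3.91, H2AX with 54.3 ± 1.51 and H3-3A with 28.7 ± 1.17. In DMSO libraries H3-3B was first with 111 ± 3.13 FPKM, before H2AZ1 with 79.9 ± 1.97, H1-10 with 41.1 ± 0.953, H2AX with 35.4 ± 1.17 and H3-3A with 28.7 ± 0.610. H2AZ1 and H3-3B therefore changed places between the treatments. MACROH2A2 came last in both, with 0.0740 ± 0.00557 FPKM in VE-822 and 0.0720 ± 0.0115 FPKM in DMSO. These ranks depend on the length used: the tables give H2AZ2 7003 bases and H3-3B 6134, while the median coding transcript of GENCODE 29 has 657.5 and 679.5 bases. Per kilobase of that transcript H3-3B was first and H2AZ1 second in all 4 groups.

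**Figure D4:**
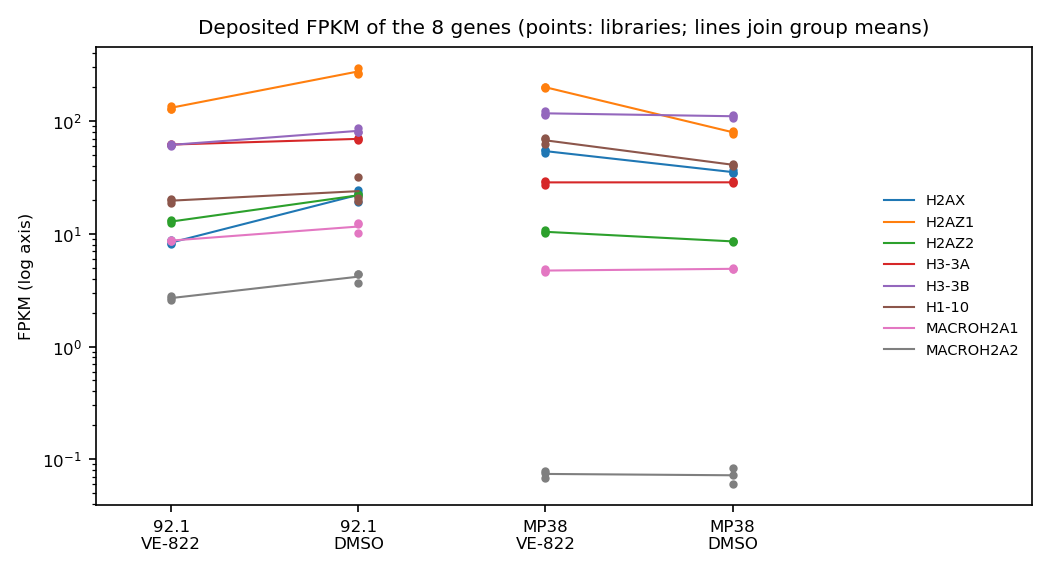
Deposited FPKM of the 8 genes on a log axis, by line and treatment; points are libraries and lines join group means within a line. H2AZ1 averages 132 FPKM in VE-822 and 277 in DMSO in 92.1, and 200.2 in VE-822 and 79.9 in DMSO in MP38, while MACROH2A2 lies near 0.07 FPKM in MP38.

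Genes that deposit or read these variants were counted from 7 lists, and the median fold change of each list is given as a description. Beside the counts stand the shares over all features tested, 20.3% higher and 19.6% lower in 92.1 and 26.9% higher and 25.4% lower in MP38. The MP38 counts of lower genes in the lists of H2A.Z exchange and phosphorylated H2AX, 3 of 13 tested in each, are near that background. So are the lower genes of FACT and NAP1 chaperones (1 of 4) and of histone transcription and 3′ end processing (2 of 7) in MP38. The higher genes of replication-coupled deposition and centromere loading (3 of 9) are near it too. No list was tested as a set. Of 13 genes of H2A.Z exchange, 1 was higher, 9 lower and 3 not past the test in 92.1 (median log2 fold change -0.22), and 6 higher, 3 lower and 4 not past it in MP38 (median 0.09). ANP32E, the chaperone that removes H2A.Z, fell to 113 ± 7.70 CPM in VE-822, against 234 ± 9.77 CPM in DMSO, in 92.1 (log2 fold change -1.05 ± 0.0617), and rose to 174 ± 6.74 CPM in VE-822, against 120 ± 2.32 CPM in DMSO, in MP38 (0.54 ± 0.0385). The acetyl reader YEATS4 moved likewise, by -0.91 ± 0.0763 in 92.1 and 0.40 ± 0.0511 in MP38. The ATPases that carry out the exchange had smaller values: EP400 had -0.34 ± 0.0434 in 92.1 and 0.03 ± 0.0376 in MP38 (edgeR adjusted p = 0.575), and SRCAP had -0.04 ± 0.0652 in 92.1 (edgeR adjusted p = 0.656) and -0.19 ± 0.0711 in MP38 (edgeR adjusted p = 0.0284).

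Of 8 genes of H3.3 deposition, 4 were lower, 0 higher and 4 not past the test in 92.1 (median -0.17), and 4 were higher, 1 lower and 3 not past it in MP38 (median 0.09). Without DMSO library 3 of 92.1 the lower count was 6, with 29% of all features then called lower. Lower counts also rose there for H2A.Z exchange (11 of 13), phosphorylated H2AX (9 of 13) and histone transcription and 3′ end processing (6 of 7). The chromatin protein DEK, an H3.3 chaperone, fell to 185 ± 12.9 CPM in VE-822, against 485 ± 25.3 CPM in DMSO, in 92.1 (-1.39 ± 0.0658), and rose by 0.38 ± 0.0418 in MP38. DAXX, which loads H3.3 at telomeres and repeats, had -0.76 ± 0.13 in 92.1 and 0.13 ± 0.0398 in MP38. HIRA, which loads it at active genes, had -0.34 ± 0.0860 in 92.1 and 0.05 ± 0.0609 in MP38 (edgeR adjusted p = 0.563). ATRX, the partner of DAXX, did not pass in either line, with 0.12 ± 0.0544 in 92.1 (edgeR adjusted p = 0.117) and 0.09 ± 0.0408 in MP38 (edgeR adjusted p = 0.0803).

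The list of replication-coupled deposition and centromere loading had 9 of 9 members lower in 92.1 (median -1.59). In MP38 it split into 3 higher, 4 lower and 2 not past the test (median -0.13). The centromere chaperone HJURP fell to 11.4 ± 1.73 CPM in VE-822, against 53.4 ± 0.973 CPM in DMSO, in 92.1, and rose to 58.7 ± 2.84 CPM in VE-822, against 24.8 ± 1.11 CPM in DMSO, in MP38. The histone-binding CAF-1 subunit RBBP4 and the H3-H4 chaperone NASP were lower in both lines. The log2 fold change of RBBP4 was -0.50 ± 0.0684 in 92.1 and -0.60 ± 0.0371 in MP38, and that of NASP was -1.26 ± 0.0834 in 92.1 and -0.50 ± 0.0439 in MP38. The CAF-1 subunit CHAF1A, which loads H3 behind the replication fork, fell by 2.00 on the log2 scale in 92.1 (SE 0.131) and by 0.13 in MP38 (SE 0.0426, edgeR adjusted p = 0.0135) and so was lower in both lines. Of the 4 FACT and NAP1 chaperone genes all were lower in 92.1 (median -0.48), while in MP38 2 were higher, 1 was lower and 1 did not pass (median 0.09). SSRP1, a FACT subunit, had -0.74 ± 0.0459 in 92.1 and 0.24 ± 0.0423 in MP38.

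In the phosphorylated H2AX pathway 13 of 14 genes were tested in each line; 1 was higher, 7 lower and 5 not past the test in 92.1 (median -0.27), and 5 were higher, 3 lower and 5 not past it in MP38 (median 0.12). MDC1, the adaptor that binds phosphorylated H2AX, fell to 99.2 ± 6.43 CPM in VE-822, against 319 ± 39.0 CPM in DMSO, in 92.1 (-1.69 ± 0.0924), and rose by 0.45 ± 0.0373 in MP38. PPM1D, a p53-induced phosphatase that removes the mark, was the 1 member higher in 92.1, at 78.2 ± 0.391 CPM in VE-822 and 36.8 ± 2.69 CPM in DMSO (1.09 ± 0.0606), and had -0.04 ± 0.0575 in MP38 (edgeR adjusted p = 0.583). The ubiquitin ligase RNF168, which extends the mark's signal, had -0.64 ± 0.13 in 92.1 and 0.35 ± 0.0456 in MP38.

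Genes of histone transcription and 3′ end processing had 5 of 7 lower, 0 higher and 2 not past the test in 92.1 (median -0.82), and 3 higher, 2 lower and 2 not past it in MP38 (median 0.25). NPAT, the coactivator of clustered histone genes, had -0.58 ± 0.0574 in 92.1 and 0.47 ± 0.0434 in MP38. SLBP, which binds the stem loop of histone mRNA, had -0.82 ± 0.125 in 92.1 and -0.02 ± 0.0466 in MP38 (edgeR adjusted p = 0.791). Further variant histone genes were few at these depths, and 3 were tested in 92.1. CENPA, the centromeric H3, fell to 7.97 ± 0.497 CPM in VE-822, against 32.2 ± 2.77 CPM in DMSO, in 92.1, and rose to 32.8 ± 0.196 CPM in VE-822, against 11.8 ± 0.534 CPM in DMSO, in MP38. H2AJ, an H2A variant linked to senescence, rose in MP38 by 1.20 ± 0.0499. Its 92.1 libraries held 2, 11 and 4 counts in VE-822 and 1, 0 and 0 counts in DMSO, too few to be tested. Of the 3 tested in 92.1, 2 were lower, CENPA and the pseudogene H1-9P, and 1 did not pass the test (median -0.20). H1-9P was lower in MP38 too, by a log2 fold change of -0.44 ± 0.0585 (edgeR adjusted p = 2.02e-06).

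**Figure D5:**
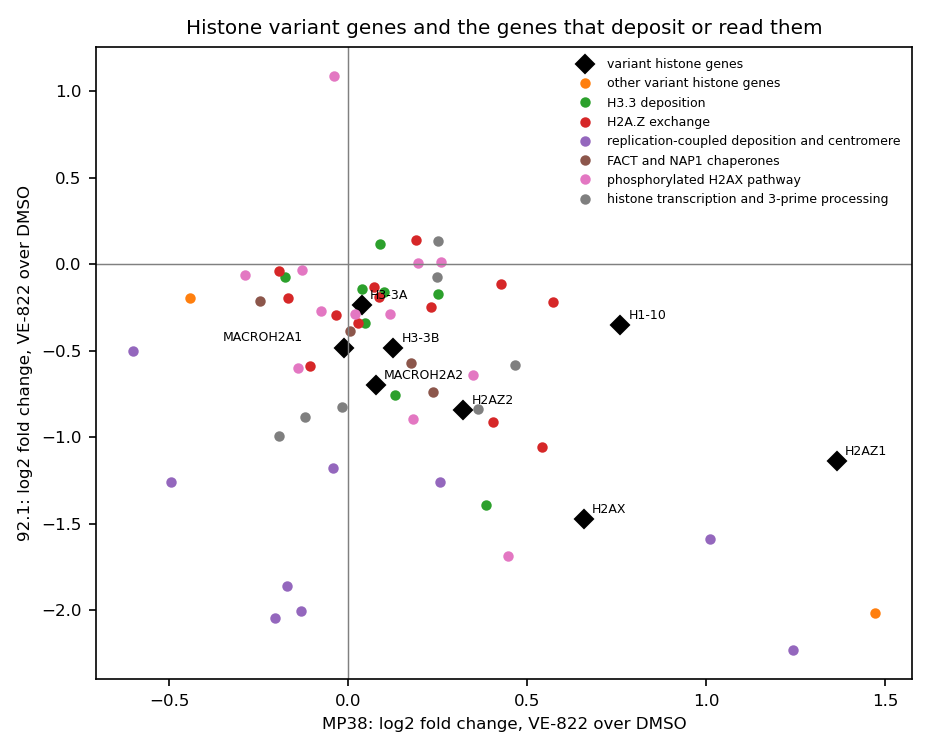
Log2 fold change of VE-822 over DMSO in MP38 (horizontal) and 92.1 (vertical) for the 8 histone variant genes (black diamonds, named) and for genes of 7 lists tested in both lines (coloured points). H2AX, H2AZ1, H2AZ2 and H1-10 lie in the lower right, higher in MP38 and below 0 in 92.1, and MACROH2A1, MACROH2A2 and H3-3A lie below 0 in 92.1 near 0 in MP38.

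The genes whose pattern was most like that of each member were taken by Pearson's r of log2(CPM + 1), centred on the mean of each line, over the 12 libraries and among the 10907 coding genes that averaged 5 CPM or more. These libraries share line and treatment, so high values are common and the coefficients are a description only. H2AX was most like MYBL2 (r = 0.996), KIF18B (0.996) and BUB1B (0.996), a transcription factor, a kinesin and a spindle checkpoint kinase of dividing cells. H2AZ1 was most like ARL6IP1 (r = 0.998), HMMR (0.997) and UCHL5 (0.996), and H2AZ2 most like SSRP1 (r = 0.996), CWF19L1 (0.996) and the nucleosome-binding HMGN1 (0.996). MACROH2A1 was most like RCC1 (r = 0.994), RBBP7 (0.994) and UHRF1 (0.993), and MACROH2A2 most like CENPV (r = 0.988), SFMBT1 (0.986) and LMF2 (0.985).

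Of the remaining members, H3-3A had the lowest coefficients of all 8. H3-3B was most like CDKN2A (r = 0.989), KATNA1 (0.987) and MRPL37 (0.984), H1-10 most like CYP2R1 (r = 0.988), TNFRSF14 (0.985) and C1GALT1 (0.982), and H3-3A most like SF3A2 (r = 0.965), TBP (0.964) and NT5C (0.959). Among the members themselves, H2AX and H2AZ2 were closest (r = 0.988), followed by MACROH2A1 and MACROH2A2 (0.967), and H1-10 and MACROH2A1 were farthest apart (0.106). All coefficients include DMSO library 3 of 92.1, where H1-10 was the highest and the macroH2A genes the lowest of their DMSO group. Coefficients without that library were not computed. The paralogs H2AZ1 and H2AZ2 had r = 0.862 and H3-3A and H3-3B 0.915, each over the same 12 libraries.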

How the data were processed

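Poly(A) RNA of 12 libraries was counted per gene. For each line the authors deposited raw counts in one table and FPKM in another; the deposited FPKM are those counts scaled by feature length and library total. The submitters' processing notes name cutadapt 4.8, FastQC 0.12.1, MultiQC 1.7, STAR 2.7.11a, featureCounts 2.0.6 and GRCh38.p13. How reads with several alignments were counted is not given in the sources used here, so near-identical genes are uncertain.

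Counts were analysed in R 4.3.3 with edgeR 4.0.16: filterByExpr (minimum count 10, minimum total 15), TMM, quasi-likelihood F test, Benjamini-Hochberg over all features, threshold 0.05. CPM are TMM-scaled within a line, and levels set across lines rest on separate scalings. SE come from the F statistic. Line responses used 6 libraries each, and their difference all 12 over features present in both tables, with 1 spread per gene. The fits were also run on simulated counts that held no outlying library, and the outcome is not used as support here. Alternatives used DESeq2 1.42.0, limma 3.58.1 with pseudocounts 1 and 0.1, other scalings, filters, a replicate block and single libraries left out.

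Members, lists and tests were chosen with earlier results of these data known. Named genes are the 8 members, up to 4 called genes of each list in each line by smallest adjusted p (a part is printed), the 3 most alike genes per member, and pseudogene or antisense features of at least 1 CPM. SRCAP, EP400 and HIRA in MP38, ATRX, SLBP, CHAF1A, RBBP4 and NASP in 92.1, RNF168 in 92.1, PPM1D in MP38, H2AJ in 92.1, AIFM2, H3Y1 and the genes printed with it were chosen after their values were seen. Protein sequences were not compared, and 1 further histone gene is not reported here.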

Additional observations from a re-analysis of the deposited data

Results flagged for a closer look

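The response of each of the 8 histone variant genes differed between the lines by the interaction test. That test called 40.9% of 24958 features, 22.1% as higher and 18.8% as lower. As the response of 92.1 minus that of MP38 on the log2 scale, the values were -2.10 for H2AX, -2.475 for H2AZ1, -1.13 for H2AZ2, -0.25 for H3-3A, -0.58 for H3-3B, -1.08 for H1-10, -0.44 for MACROH2A1 and -0.75 for MACROH2A2. H2AX, H2AZ1, H2AZ2 and H3-3B passed the test in both lines with opposite signs, and the other 4 in 1 line only. The MP38 call of H3-3B was lost under several alternatives. The H3-3A difference missed the threshold among features of at least 5 CPM.

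Features of histone H3 type other than the 8 genes held counts in VE-822 libraries of 92.1 and almost none in DMSO: H3Y1 had 281 summed counts in VE-822 and 4 in DMSO, H3P21 had 127 in VE-822 and 2 in DMSO, and H3P18 had 52 in VE-822 and 0 in DMSO. Of these, H3Y1 and H3P21 passed the filter on low counts only through their VE-822 libraries, and H3P18 was not tested. All were picked for counts that stood high in VE-822, so a test on the same counts would add no support. A count of 0 allows up to 3 counts by counting error.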

How the results depend on the processing

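The fits were repeated with other scalings (RLE factors, library size only), filters (none, at least 5 CPM), a robust fit, DESeq2, limma on FPKM and single libraries left out. H2AX, H2AZ1 and H2AZ2 kept direction and call under each of these in both lines and in the difference. In MP38 the H3-3A log2 fold change turned to -0.0015 with library size only and to -0.0022 and -0.0023 with limma on log2(FPKM + 1) and log2(FPKM + 0.1). The H3-3B call in MP38 was lost in the same 3 settings, with 0.086, 0.085 and 0.085. H1-10 in 92.1 passed with DESeq2 (-0.37) and with no filter (-0.38). The H3-3A difference missed the threshold at 5 CPM (-0.13) and with limma on log2(FPKM + 0.1) (-0.17). With at least 5 CPM the 92.1 comparison called 5722 features, 2917 higher and 2805 lower, against 9156 (4658 higher, 4498 lower). That filter tested fewer features than the 22943 of the main fit, so these counts cannot be compared as shares. MACROH2A2 in MP38 fell below that filter. Per kilobase of coding transcript, an alternative added after the data were seen, H3-3B ranked 1 and H2AZ1 ranked 2 in every group, where by FPKM H2AZ1 ranked 1 except in DMSO libraries of MP38. The causes of these shifts were not tested.

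With each library left out in turn, log2 fold changes ran in MP38 from -0.0038 to 0.084 for H3-3A, 0.073 to 0.16 for H3-3B, -0.037 to 0.0035 for MACROH2A1 and -0.045 to 0.18 for MACROH2A2, and in 92.1 from -0.50 to -0.12 for H1-10. Features lower in 92.1 ran from 3343 to 6899, the highest without DMSO library 3.

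Same-numbered samples correlated by 0.088 to 0.111 in 92.1, each best with its own number. In MP38 they correlated by -0.102 to -0.0179, none best with its own number. Coefficients this small cannot decide whether the numbers pair samples. A replicate block gave 8762 called features in 92.1, 10666 in MP38 and 9881 in the difference, and changed no call among the 8 genes. MACROH2A2 in MP38 rests on 56 to 76 counts a library.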

Other observations

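A pair of primate H3 variant genes, H3Y1 and H3Y2, appeared in 92.1 under VE-822. H3Y1 (chr5:17654868-17655849 on GRCh38) had 89, 77 and 115 counts in VE-822 libraries, against 0, 0 and 4 in DMSO. H3Y2 (chr5:17490967-17492076) had 4, 7 and 14 counts in VE-822, against 0 in each DMSO library. Neither was analysed here in MP38. Several neighbouring features on chromosome 5 showed the same pattern. The TAF11-like gene TAF11L2 stayed near 0, with 1, 0 and 2 counts in VE-822 libraries of 92.1 and 0 in each DMSO library. The TAF11-like genes TAF11L11, TAF11L12, TAF11L13 and TAF11L14 had 112, 148, 44 and 51 summed counts in VE-822 libraries of 92.1 and 0 in DMSO, and the H3 pseudogene H3P21 (chr5:17625551-17625959) had 34, 55 and 38 counts in VE-822, against 0, 0 and 2 in DMSO. H3P18 (chr5:17511833-17512238) had 23, 11 and 18 counts in VE-822, against 0 in each DMSO library. In MP38 the TAF11-like genes with a value, TAF11L11, TAF11L13 and TAF11L14, summed to 1, 2 and 0 counts in VE-822 and 1, 0 and 2 in DMSO.

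H3Y1 and H3Y2 are known, from human muscle cells, as genes that the embryonic transcription factor DUX4 activates, as are ZSCAN4, TRIM43 and LEUTX. In 92.1, DUX4 had 6, 1 and 5 counts in VE-822 libraries and 0 in each DMSO library, ZSCAN4 had 27, 19 and 28 against 0 in each, and TRIM43 had 13, 5 and 19 against 0 in each. LEUTX had 5 summed counts in VE-822 and 0 in DMSO. MBD3L2, KHDC1L and DUXA, other genes of that embryonic program, did not stand out, with 1, 2 and 1 summed counts in VE-822 and 2, 1 and 0 in DMSO. In MP38, ZSCAN4 and TRIM43 had 3 and 5 summed counts in VE-822 and 0 in DMSO. LEUTX had 1 summed count in VE-822 and 0 in DMSO there. KHDC1L went the other way in MP38, with 2 summed counts in VE-822 and 5 in DMSO. All these levels are below 1 CPM. The genes were chosen after their counts were seen, several have near-identical copies between which reads cannot be told apart, and no test is given for them as a group.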
